A study of Mus musculus with 12 samples.

Results

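The genes of phosphate and pyrophosphate transport described here were Ank, Xpr1, Slc20a1, Slc20a2, Enpp1 and Slc37a2, which are 6 of the 47643 genes counted in bulk RNA-seq. of mouse osteoclasts, and all 6 were among the 13681 genes that passed the filter on low counts. They were chosen by name, with the lower counts of Ank and Xpr1 in stimulated osteoclasts already known, so that differences of the 6 genes from unstimulated osteoclasts are given as a description with no test, and only the difference between the 2 stimulated groups was tested. The 12 libraries fell into 3 groups of 4 biological replicates. BALB/c WT mice supplied the bone marrow-derived monocytes (BMMs) for all cultures, which were kept in medium with M-CSF and RANKL, the cytokines that drive monocytes into multinucleated bone-resorbing osteoclasts, with a medium change on day 2 and harvest on day 3. Unstimulated osteoclasts (OCsCtr) received nothing else, OCsEo received sorted eosinophils at a BMMs/Eos ratio of 1:2, and OCsEoS received eosinophil supernatant at a dilution of 1:2, each from day 0 for 48 h before the stimulus was washed away. The eosinophils were sorted from blood and bone marrow of IL-5tg/4get mice, which carry an IL-5 transgene and an IL-4 reporter and hold high numbers of eosinophils, and therefore did not come from the mice that gave the BMMs. RNA was taken from the whole culture, in which fewer osteoclasts and less RNA of a gene per osteoclast cannot be told apart.

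Resorption of bone mineral sets free large amounts of inorganic phosphate (Pi), which cells take up through the sodium-dependent carriers PiT-1 (Slc20a1) and PiT-2 (Slc20a2) and release through the exporter XPR1. Pyrophosphate (PPi) blocks the growth of hydroxyapatite crystals outside cells. It arises there when the membrane enzyme ENPP1 cleaves ATP, and the membrane protein ANK brings PPi, or the ATP from which it is made, out of the cell. SLC37A2 exchanges phosphate for glucose-6-phosphate across the membranes of internal compartments and belongs to the secretory lysosomes of osteoclasts.

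Total counts per library ranged from 27837530 to 40327869, at which 3 counts equal 0.0744 to 0.108 CPM (counts per 1000000 counts of a library). All 14 osteoclast markers, among them Acp5, Ctsk and Nfatc1, were detected in every group. Their summed level was 29201 to 35444 CPM in OCsCtr, 18735 to 23950 CPM in OCsEo and 15548 to 22896 CPM in OCsEoS. In each stimulated group 9 of 14 were called lower, beside 2.61% of all tested genes in OCsEo and 4.11% in OCsEoS (edgeR, Benjamini-Hochberg adjusted p under 0.05 and absolute log2 fold change over 0.5). The summed level of 8 macrophage markers was 2259 to 2566, 2061 to 2401 and 1846 to 2222 CPM in the same order, while their median log2 fold change was 0.29 in OCsEo and 0.51 in OCsEoS, with 1 called higher in OCsEo, and 3 higher and 1 lower in OCsEoS. That of 10 eosinophil markers was 57.1 to 73.7, 60.1 to 82.2 and 49.3 to 55.5 CPM, most of it from Ccr3. Of the 10, 5 passed the filter and were tested. In OCsEo 2 of these 5 were called higher, Alox15 (0.300 ± 0.249 CPM in OCsCtr, 10.98 ± 4.34 CPM in OCsEo) and Siglecf (0.428 ± 0.199 and 2.94 ± 0.317 CPM), beside 3.27% of all tested genes. In OCsEoS 1 was called lower, Prg2 (5.53 ± 1.92 CPM in OCsCtr and 0.815 ± 0.838 CPM in OCsEoS), beside 4.11%. The defining granule gene Epx reached at most 18 counts in any library, and 4 of the 10, Epx included, were at 0 in all OCsEoS libraries. The summed level of 8 neutrophil markers was 311 to 451, 452 to 604 and 355 to 422 CPM. Of these 8, 2 were called higher in OCsEo and 0 were called in OCsEoS against OCsCtr. Between the stimulated groups, 3 of the 8 were called lower in OCsEoS, as were 2 eosinophil markers, beside 0.38% of all tested genes called in either direction. The part of these shifts in the differences below was not tested.

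Of the pyrophosphate genes, Ank (ENSMUSG00000022265, chr15:27466677-27594909 of GRCm38, forward strand) was abundant and lower in both stimulated groups. In replicates 1 to 4 it was counted at 1098, 1170.3, 1197 and 1055 CPM in OCsCtr, at 678, 732, 719 and 673 CPM in OCsEo and at 792, 876, 828 and 758 CPM in OCsEoS. All 8 stimulated libraries were below the lowest of OCsCtr, and the 4 OCsEo libraries were below the lowest of OCsEoS. The group means were 1130 ± 64.9, 700.3 ± 29.7 and 813 ± 50.5 CPM (SD, n = 4). The fitted log2 fold change from OCsCtr was -0.69 (SE 0.057) in OCsEo, or 38.0% lower, and -0.47 (SE 0.057) in OCsEoS, or 28.0% lower. Between the stimulated groups, Ank was 0.22 higher in OCsEoS than in OCsEo on the log2 scale (95% confidence interval 0.10 to 0.33), which did not pass the test over all genes (edgeR quasi-likelihood F-test, unadjusted p = 0.00119, Benjamini-Hochberg adjusted p = 0.106). This adjusted p crossed 0.05 with the tool, at 0.0246 with DESeq2. Over 18 alternatives it ran from 0.0163 to 0.261 and was under 0.05 in 2, with the difference under the cut-off of 0.5.

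Enpp1 (ENSMUSG00000037370, chr10:24637914-24712159, reverse strand), which makes extracellular PPi, was barely expressed. The 4 OCsCtr libraries held 81, 24, 30 and 110 counts, or 2.81, 0.712, 0.883 and 3.42 CPM. OCsEo libraries held 2.39, 2.68, 2.20 and 2.81 CPM, and OCsEoS libraries held 2.74, 2.03, 2.17 and 2.57 CPM. OCsCtr thus spread over a wider range than both stimulated groups and overlapped them, with a coefficient of variation of 69.7% against 10.9% in OCsEo and 14.1% in OCsEoS. The fitted log2 fold changes from OCsCtr, 0.37 (SE 0.40) in OCsEo and 0.28 (SE 0.40) in OCsEoS, were smaller than their standard errors. They depended on which OCsCtr library entered, at 0.09 and 0.004 without OCsCtr replicate 2 and at 0.79 and 0.70 without OCsCtr replicate 4. The 10 osteoblast and stromal markers, among which Bglap reached at most 1 count, summed to 61.3, 13.3, 13.2 and 30.4 CPM in the 4 OCsCtr libraries, so that the replicates with more Enpp1 were also those with more of these markers. In the stimulated groups the 2 measures did not run together, as the OCsEo library with the highest marker sum, 40.8 CPM, held 2.68 CPM of Enpp1 and the one with the lowest, 11.7 CPM, held 2.81 CPM.

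**Figure D1:**
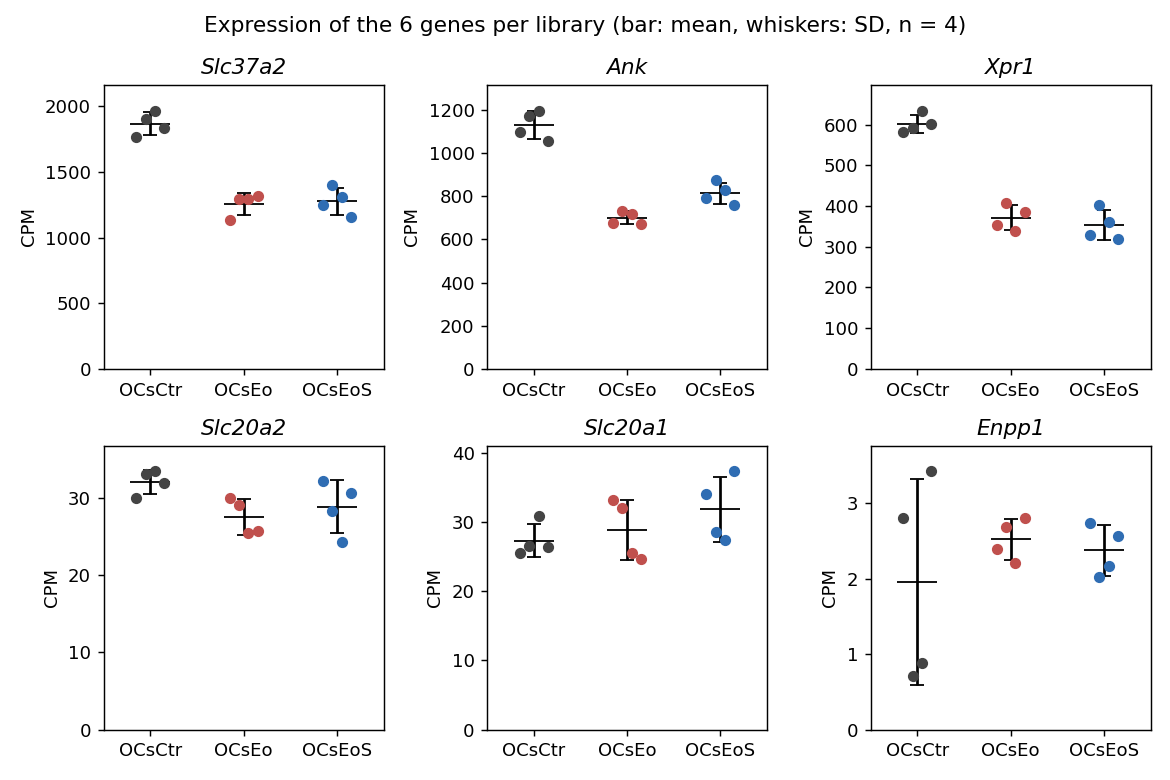
Level of each gene in CPM (TMM-scaled, axes from 0) in each of 12 libraries, with points from left to right for replicates 1 to 4, the bar at the group mean and whiskers of 1 SD (n = 4). Slc37a2, Ank and Xpr1 sit lower in every OCsEo and OCsEoS library than in any OCsCtr library, whereas the groups overlap for Slc20a2, Slc20a1 and Enpp1.

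Xpr1 (ENSMUSG00000026469, chr1:155275701-155417415, reverse strand), the Pi exporter, differed from OCsCtr by the most of the 6 genes in OCsEoS. It was counted at 581, 593, 634 and 600.5 CPM in OCsCtr, at 353, 407, 339 and 387 CPM in OCsEo and at 330.1, 403, 362 and 319.9 CPM in OCsEoS. The highest stimulated library, at 407 CPM, lay far below the lowest OCsCtr library, at 581 CPM, and the stimulated groups overlapped each other. The group means were 602 ± 22.8, 371 ± 31.0 and 354 ± 37.5 CPM (SD, n = 4). The fitted log2 fold change was -0.70 (SE 0.072), or 38.3% lower, in OCsEo and -0.77 (SE 0.072), or 41.2% lower, in OCsEoS. OCsEoS differed from OCsEo by -0.07 (95% confidence interval -0.22 to 0.08), which did not pass the edgeR test (adjusted p = 0.769).

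Slc37a2 (ENSMUSG00000032122, chr9:37229149-37255738, reverse strand), the sugar-phosphate antiporter, took the most counts of the 6. It stood at 1767, 1906, 1967 and 1835 CPM in OCsCtr, at 1135, 1296, 1291 and 1314 CPM in OCsEo and at 1246, 1401, 1306 and 1158 CPM in OCsEoS. All 8 stimulated libraries were below all 4 OCsCtr libraries, while OCsEo and OCsEoS overlapped. The fitted log2 fold change was -0.57 (SE 0.062), or 32.6% lower, in OCsEo and -0.55 (SE 0.062), or 31.6% lower, in OCsEoS. The stimulated groups differed by 0.02 (95% confidence interval -0.11 to 0.15, edgeR adjusted p = 0.934). An antisense gene in GENCODE vM21, Gm48081, shares 241 exonic bases with Slc37a2 and is not among the genes counted. Whether reads were counted by strand is not given in the sources used here.

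The 2 uptake carriers were expressed far below Ank, Slc37a2 and Xpr1 and did not share the large differences of the exporter. Slc20a1 (ENSMUSG00000027397, chr2:129198764-129211616, forward strand) was counted at 25.5, 26.5, 30.9 and 26.4 CPM in OCsCtr, at 33.1, 31.98, 25.5 and 24.6 CPM in OCsEo and at 34.0, 28.6, 27.4 and 37.3 CPM in OCsEoS. The 3 groups overlapped, with fitted log2 fold changes from OCsCtr of 0.08 (SE 0.12) in OCsEo and 0.22 (SE 0.12) in OCsEoS. Slc20a2 (ENSMUSG00000037656, chr8:22476700-22569607, forward strand) was counted at 29.95, 33.1, 33.4 and 31.9 CPM in OCsCtr, at 29.97, 29.2, 25.4 and 25.7 CPM in OCsEo and at 32.2, 28.3, 24.3 and 30.6 CPM in OCsEoS. Of its 8 stimulated libraries 5 lay below the lowest OCsCtr library, the groups overlapped, and the log2 fold changes were -0.22 (SE 0.099) in OCsEo and -0.15 (SE 0.099) in OCsEoS. Between OCsEoS and OCsEo, Slc20a1 differed by 0.14 (95% confidence interval -0.11 to 0.39, edgeR adjusted p = 0.704). Slc20a2 differed by 0.07 (95% confidence interval -0.14 to 0.27, edgeR adjusted p = 0.854). Each carrier shares exonic bases with genes on the other strand. Slc20a1 shares 452 bases with 9830144P21Rik (0 to 5 counts per library) and 280 bases with Gm4430 (67 to 147 counts per library). Slc20a2 shares 95 bases with Smim19 (708 to 1341 counts per library).

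Set together, 3 of the 6 genes (Ank, Xpr1 and Slc37a2) were past both thresholds and lower in OCsEo, where 2.61% of all tested genes were called lower. In OCsEoS 2 of 6 (Xpr1 and Slc37a2) were past both, where 4.11% were called lower, and Ank at -0.47 did not reach the fold change cut-off of 0.5. Xpr1 and Slc37a2 were past both in either group, beside 1.75% of genes called lower in both. None of the 6 was past both thresholds in the higher direction, where 3.27% of genes were called in OCsEo and 3.63% in OCsEoS. The 3 genes with no overlap between a stimulated group and OCsCtr were the same in both comparisons, beside 10.9% of all tested genes separated downwards in OCsEo and 13.1% in OCsEoS. Both comparisons use the same OCsCtr libraries. These counts apply the thresholds used for all genes, adjusted p included, and follow from how the genes were chosen, so that they are no test of the 6 genes. The median log2 fold change of the 6 was -0.39 in OCsEo and -0.31 in OCsEoS, against -0.007 and -0.006 over all genes tested. In the comparison that the choice did not use, OCsEoS against OCsEo, edgeR called 0 of 6 at a background of 0.38% of genes, DESeq2 called 0, and 1 of 6 (Ank) had an unadjusted p under 0.05. For Enpp1 this comparison gave -0.09 with a 95% confidence interval of -0.91 to 0.73 (adjusted p = 0.964), with an SE of 0.39, which was 0.28 in a fit of these 2 groups without OCsCtr. Ank was also the 1 gene of 6 whose OCsEoS libraries all lay above the OCsEo libraries, which held for 2.41% of genes tested.

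**Figure D2:**
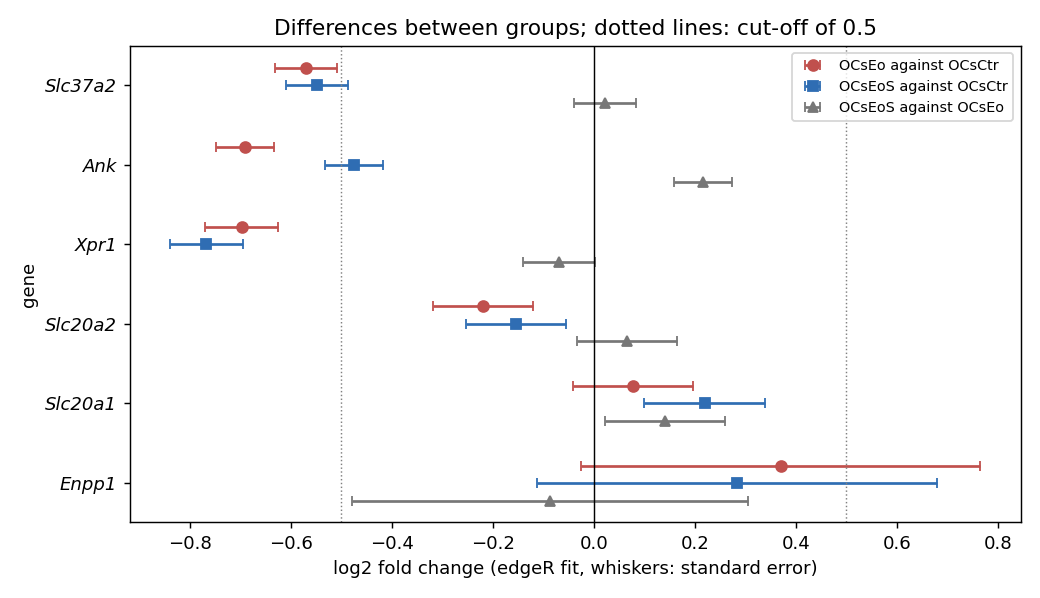
Fitted log2 fold change of each gene in 3 comparisons between groups of 4 libraries, with whiskers of 1 standard error and dotted lines at the cut-off of 0.5. Ank, Xpr1 and Slc37a2 lie between -0.77 and -0.47 against OCsCtr, Slc20a2 and Slc20a1 between -0.22 and 0.22, and Ank at 0.22 is the one farthest above 0 between OCsEoS and OCsEo.

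Compared per length as reads per kilobase of exon scaled to depth (RPKM), the 6 genes spanned a wide range of levels. In OCsCtr the order was Slc37a2 at 368 ± 17.1, Ank at 313 ± 18.0, Xpr1 at 33.7 ± 1.28, Slc20a2 at 8.80 ± 0.431, Slc20a1 at 4.89 ± 0.433 and Enpp1 at 0.191 ± 0.133 RPKM (SD, n = 4). In OCsCtr, Slc37a2 ranked 231 and Ank 266 of 13681 genes per length, so that 98.3% and 98.1% of tested genes lay below them. Xpr1 had 86.2% of genes below it, Slc20a2 65.6%, Slc20a1 54.7% and Enpp1 8.81%. With the deposited lengths, the order was the same in OCsEo and OCsEoS. Neighbours in the order did not overlap in OCsCtr or OCsEo, but in OCsEoS the ranges of Slc37a2 and Ank (ratio of means 1.12) and of Slc20a2 and Slc20a1 (1.39) did. The order within both pairs rests on these lengths. With the longest transcript as length, Ank came before Slc37a2 in OCsCtr and OCsEoS, and with the merged exons of GENCODE vM21 in all 3 groups. With either, Slc20a1 came before Slc20a2 in OCsEo and OCsEoS.

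**Figure D3:**
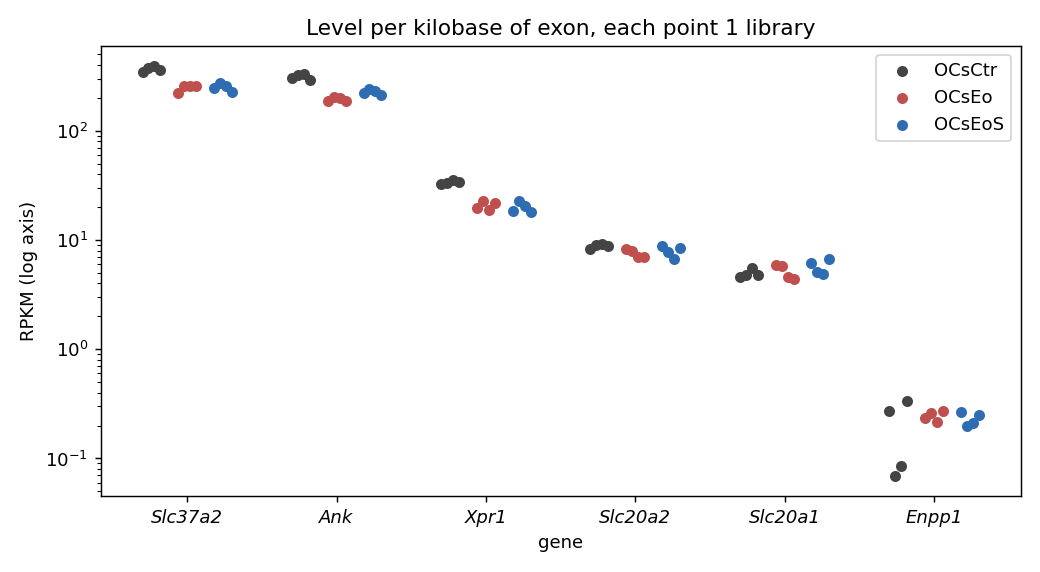
Level per length (RPKM, log axis) of each gene, each point 1 of 12 libraries. Slc37a2 and Ank form the top, with OCsCtr means of 368 and 313 RPKM, Xpr1 follows at 33.7 RPKM, the uptake carriers lie below it at 8.80 and 4.89 RPKM, and Enpp1 stays below 1 RPKM in every library.

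Ratios taken within a library do not depend on its scaling, but their size depends on the gene lengths. Xpr1 over the summed level per length of both uptake carriers was 2.46 ± 0.0673 in OCsCtr, 1.65 ± 0.202 in OCsEo and 1.48 ± 0.311 in OCsEoS (SD, n = 4), so that export transcripts exceeded uptake transcripts in every library and by less in the stimulated ones. The lowest OCsCtr library, at 2.40, lay above the highest stimulated library, at 1.89. With longest transcripts the means were 4.67, 3.05 and 2.72, and with merged exons 3.35, 2.18 and 1.95, again with every OCsCtr library above all stimulated ones. Slc20a1 over Slc20a2 was 0.556 ± 0.0345, 0.680 ± 0.0477 and 0.720 ± 0.0594, and its OCsCtr libraries, at most 0.603, lay below all stimulated libraries, at least 0.625. This ratio passed 1 in both stimulated groups by the other lengths, with means of 0.914, 1.12 and 1.18 for longest transcripts and 0.947, 1.16 and 1.23 for merged exons. Ank over Xpr1 was 9.30 ± 0.443 in OCsCtr and 9.39 ± 0.829 in OCsEo, and 11.4 ± 0.503 in OCsEoS, or 4.02, 4.06 and 4.94 with longest transcripts. For this last ratio OCsCtr and OCsEo overlapped, while the lowest OCsEoS library (10.8) lay above the highest OCsEo library (10.5). These ratios were not tested. The lower ratio of Xpr1 to the uptake carriers in stimulated libraries follows in part from the choice of Xpr1, and the other lengths are no check of it.

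**Figure D4:**
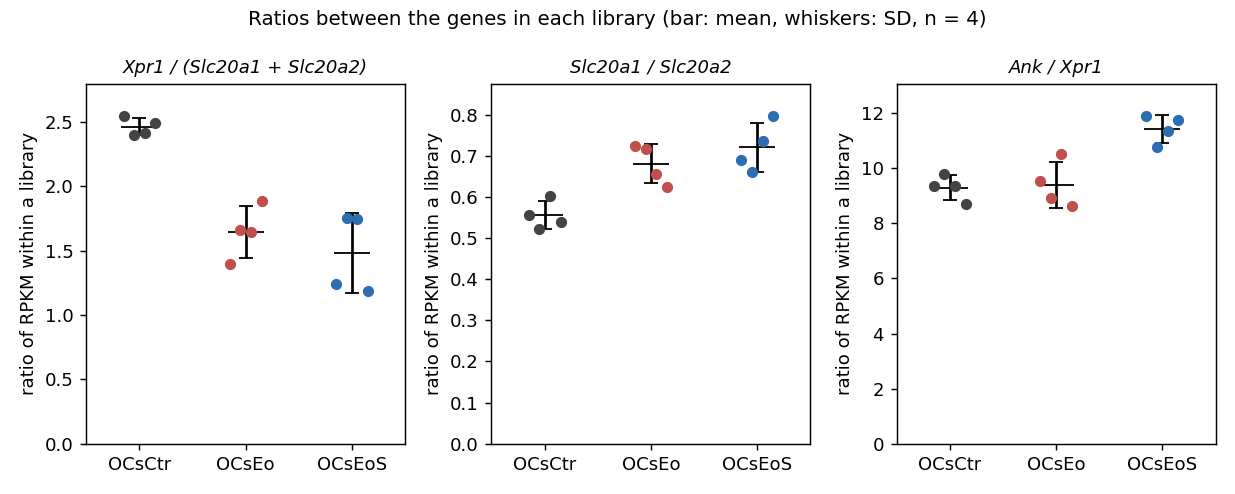
Ratio of levels per length (RPKM, axes from 0) within each library for Xpr1 over both uptake carriers, Slc20a1 over Slc20a2, and Ank over Xpr1, with the bar at the group mean and whiskers of 1 SD (n = 4). The first ratio is lower in all 8 stimulated libraries than in OCsCtr, the second is higher, and the third is higher in OCsEoS, at 11.4, than in OCsCtr and OCsEo, at 9.30 and 9.39.

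The proximal promoters of the 3 genes that were lower in both stimulated groups, and of Slc20a1 as an uptake carrier that was not, are shown because these 3 genes moved together across the libraries. The sequences are the 250 bases before the RefSeq start on GRCm38.p6 (for Slc20a1, the first of its 2 starts), 5′ to 3′ on the strand of the gene, with capitals for matches on either strand to TGANTCA (the AP-1 motif of the FOS and JUN factors), CACGTG (the E-box of the MITF and TFE factors) and GGAAA (the core of NFAT sites), 3 families that RANKL brings into play in osteoclasts. They lie at chr15:27466427-27466676 (forward) for Ank, chr1:155417445-155417694 (reverse) for Xpr1, chr9:37255739-37255988 (reverse) for Slc37a2 and chr2:129198523-129198772 (forward) for Slc20a1.
Ank: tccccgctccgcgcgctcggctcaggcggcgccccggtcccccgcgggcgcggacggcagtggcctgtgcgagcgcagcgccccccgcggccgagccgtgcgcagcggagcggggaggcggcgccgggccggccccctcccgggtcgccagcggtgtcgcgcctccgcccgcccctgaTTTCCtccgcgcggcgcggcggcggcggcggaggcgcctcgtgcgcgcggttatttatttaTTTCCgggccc
Xpr1: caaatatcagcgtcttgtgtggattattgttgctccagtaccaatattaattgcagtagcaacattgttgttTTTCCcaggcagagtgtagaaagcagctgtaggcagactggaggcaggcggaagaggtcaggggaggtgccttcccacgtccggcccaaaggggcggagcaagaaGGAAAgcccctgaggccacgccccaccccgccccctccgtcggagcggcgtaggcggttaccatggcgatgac
Slc37a2: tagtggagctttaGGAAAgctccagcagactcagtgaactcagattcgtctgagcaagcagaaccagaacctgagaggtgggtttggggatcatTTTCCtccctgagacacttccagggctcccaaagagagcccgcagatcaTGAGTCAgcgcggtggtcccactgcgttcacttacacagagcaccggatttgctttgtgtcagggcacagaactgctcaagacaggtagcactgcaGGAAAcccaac
Slc20a1: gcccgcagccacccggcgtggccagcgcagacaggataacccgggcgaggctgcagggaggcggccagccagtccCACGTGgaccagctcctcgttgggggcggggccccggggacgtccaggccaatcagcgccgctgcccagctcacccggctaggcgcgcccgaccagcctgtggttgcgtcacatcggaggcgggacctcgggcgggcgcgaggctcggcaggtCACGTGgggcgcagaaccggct

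Slc37a2 held the only AP-1 match of the 4 windows, TGAGTCA beginning 107 bases before the start, and 3 NFAT cores, while Ank and Xpr1 held 2 NFAT cores each and no AP-1 or E-box match. Slc20a1 held 2 E-boxes, 22 and 175 bases before the start, and no NFAT core, while a second RefSeq start of Slc20a1, with a window at chr2:129206846-129207095 that is not shown, held 0 E-boxes. Of 32851 RefSeq windows of this length, 6.75% held TGANTCA, 6.02% held CACGTG and 55.6% held GGAAA, so that the NFAT core is a common match. G and C made up 81.2% of the Ank window, 57.6% of that of Xpr1, 53.6% of that of Slc37a2 and 75.2% of that of Slc20a1. GC boxes (GGGCGG, in 32.7% of all windows) and CRE (TGACGT, in 6.47%) were also looked for. Ank, Xpr1 and Slc20a1 held 2 GC boxes each and Slc37a2 held 0, and the 4 windows held 0 CRE. The window of Enpp1 held none of the 3 motifs marked in capitals, no window of Slc20a2 was at hand, and a match is a description of letters only.

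Across the 12 libraries, log2 CPM of Ank, Xpr1 and Slc37a2 varied together also within groups, with Pearson's r after removal of group means of 0.763 for Ank and Slc37a2, 0.751 for Xpr1 and Slc37a2 and 0.623 for Ank and Xpr1. The uptake carriers varied with each other, at 0.854 within groups. With these 3 their values within groups were negative and in part near 0, for Slc20a1 and Slc20a2 in turn -0.156 and -0.122 with Ank, -0.231 and -0.161 with Xpr1, and -0.533 and -0.362 with Slc37a2. For Enpp1 the values within groups were -0.677 with Ank, -0.167 with Xpr1 and -0.396 with Slc37a2. With Slc20a1 and Slc20a2 they were -0.112 and -0.129. These rest on 24 to 110 counts of Enpp1 per library, with its widest spread in OCsCtr. With group means kept, r of Slc20a2 was positive, at 0.598 with Ank, 0.539 with Xpr1 and 0.506 with Slc37a2. That of Slc20a1 stayed negative, at -0.269, -0.423 and -0.471. The points share the libraries, their culture and their depth, and these values are descriptions over 12 libraries. With group means kept, the genes with the pattern most like that of Slc37a2 were Tcirg1, a subunit of the osteoclast proton pump (r = 0.993), Ocstamp, which takes part in osteoclast fusion (r = 0.991), and Cs, citrate synthase (r = 0.991). For Xpr1 they were the myosin gene Myo1d (r = 0.993), the tyrosine kinase gene Src, needed for the ruffled border (r = 0.989), Fam102a (r = 0.989), the membrane protein gene Cd109 (r = 0.988) and the G protein gene Gna13 (r = 0.987). For Ank they were Apbb1 (r = 0.984), the calcium-binding protein gene Calu (r = 0.974), the peptidase gene Ermp1 (r = 0.973), Clptm1 (r = 0.967) and the monocarboxylate transporter gene Slc16a7 (r = 0.964). Within groups, r was 0.964 for Slc37a2 and Tcirg1, 0.939 for Xpr1 and Myo1d and 0.823 for Ank and Apbb1. Again with group means kept, the genes most like the less abundant members were Cep76, Slc25a22 and Arl6 for Slc20a1 (r = 0.875 to 0.887), Dock6, Ccnt1 and Gm9923 for Slc20a2 (r = 0.903 to 0.912), and Cryba4, Gm6206 and Plpp3 for Enpp1 (r = 0.878 to 0.932). Cryba4 and Plpp3 had few counts, at a mean log2 CPM of -1.43 and 0.496, as had Enpp1. All genes in these lists were picked as the highest r among the genes tested.

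Among other genes of phosphate and pyrophosphate handling, the calls were few in number and all in the lower direction. Of 38 such genes, 27 were tested. In OCsEo against OCsCtr, 0 of 27 were called higher and 2 of 27 lower, beside 3.27% and 2.61% of all genes. In OCsEoS 0 of 27 were called higher and 3 of 27 lower, beside 3.63% and 4.11%. The share called lower was thus above that of all genes in both, but rests on 2 and 3 genes and was not tested. Between OCsEoS and OCsEo 0 were called, beside 0.38%. At an unadjusted p under 0.05, 4 were higher and 5 lower in OCsEo, 3 higher and 6 lower in OCsEoS, and 0 higher and 2 lower between the stimulated groups, and DESeq2 called 0 higher and 2, 4 and 0 lower. The median log2 fold change of the 27 was 0.04, -0.02 and -0.009 in these comparisons, near that of all genes.

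Kidins220, whose protein binds XPR1, fell in both stimulated groups, from 120 ± 3.91 CPM in OCsCtr to 81.3 ± 15.6 in OCsEo and 80.8 ± 9.77 in OCsEoS (SD, n = 4). Its log2 fold change was -0.56 (SE 0.11, edgeR adjusted p = 0.00125) in OCsEo and -0.57 (SE 0.11, adjusted p = 7.54e-04) in OCsEoS, and neither group overlapped OCsCtr. Without OCsEo replicate 3 the first became -0.44, under the cut-off. Phospho1, a phosphatase that frees phosphate from phosphocholine and phosphoethanolamine, fell from 5.66 ± 1.49 CPM to 2.95 ± 1.12 and 2.99 ± 0.561 CPM. Its log2 fold changes were -0.95 (SE 0.27, edgeR adjusted p = 0.0195) and -0.92 (SE 0.27, adjusted p = 0.0183), with overlap between OCsCtr and OCsEo. Both calls on Phospho1 were lost without OCsCtr replicate 1 (adjusted p = 0.0539 and 0.0511) or OCsCtr replicate 2 (0.0796 and 0.0755), and that in OCsEo also without OCsEo replicate 2 (0.0570) or OCsEo replicate 3 (0.0594). Ppip5k1, a kinase that makes the inositol pyrophosphates sensed by XPR1, was at 26.3 ± 1.19, 20.4 ± 1.43 and 18.4 ± 3.70 CPM and was called lower in OCsEoS (log2 fold change -0.51, SE 0.12, edgeR adjusted p = 0.00527). The log2 fold change of Ppip5k1 in OCsEoS was -0.50, just under the cut-off, without OCsCtr replicate 4 and -0.38 without OCsEoS replicate 4. In OCsEo, Ppip5k1 gave -0.37 (edgeR adjusted p = 0.0475), under the cut-off. Ppip5k2 was also lower with no call, at -0.36 (adjusted p = 0.0244) in OCsEo and -0.47 (adjusted p = 0.00345) in OCsEoS. Neither stimulated group overlapped OCsCtr for Ppip5k2, and it was called in OCsEoS without OCsEoS replicate 1 or 3.

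Carriers of the SLC34 and SLC17 families gave no signal to set beside the PiT carriers, as Slc34a2, Slc34a3 and Slc17a1 were at 0 counts in all libraries and Slc34a1 reached at most 16 counts in any library. Alpl, the phosphatase that breaks down PPi in osteoblasts, reached at most 27 counts. The mitochondrial phosphate carrier Slc25a3 was abundant, at 1469 ± 85.9, 1293 ± 86.0 and 1244 ± 59.7 CPM, and its log2 fold changes of -0.18 (edgeR adjusted p = 0.0327) and -0.24 (adjusted p = 0.00493) stayed under the cut-off. Beside Slc37a2, 0 of the 3 other genes of its family (Slc37a1, Slc37a3 and Slc37a4) were called in either stimulated group, nor was Atraid, the partner of SLC37A3. Atraid was at 71.1 ± 3.55, 76.9 ± 4.89 and 68.8 ± 2.27 CPM. The ATP release channel Panx1 was at 33.1 ± 1.17, 36.0 ± 4.21 and 38.3 ± 3.39 CPM with no call, as was Nudt4, which degrades inositol pyrophosphates, at 116 ± 10.8, 113 ± 6.08 and 114 ± 4.34 CPM. Ppa1, the cytosolic pyrophosphatase, gave 0.34 (edgeR adjusted p = 0.00643) in OCsEoS, and Fam20c, a kinase of secreted proteins, gave 0.32 (adjusted p = 0.0108) in OCsEo, both in the higher direction and under the cut-off.

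**Figure D5:**
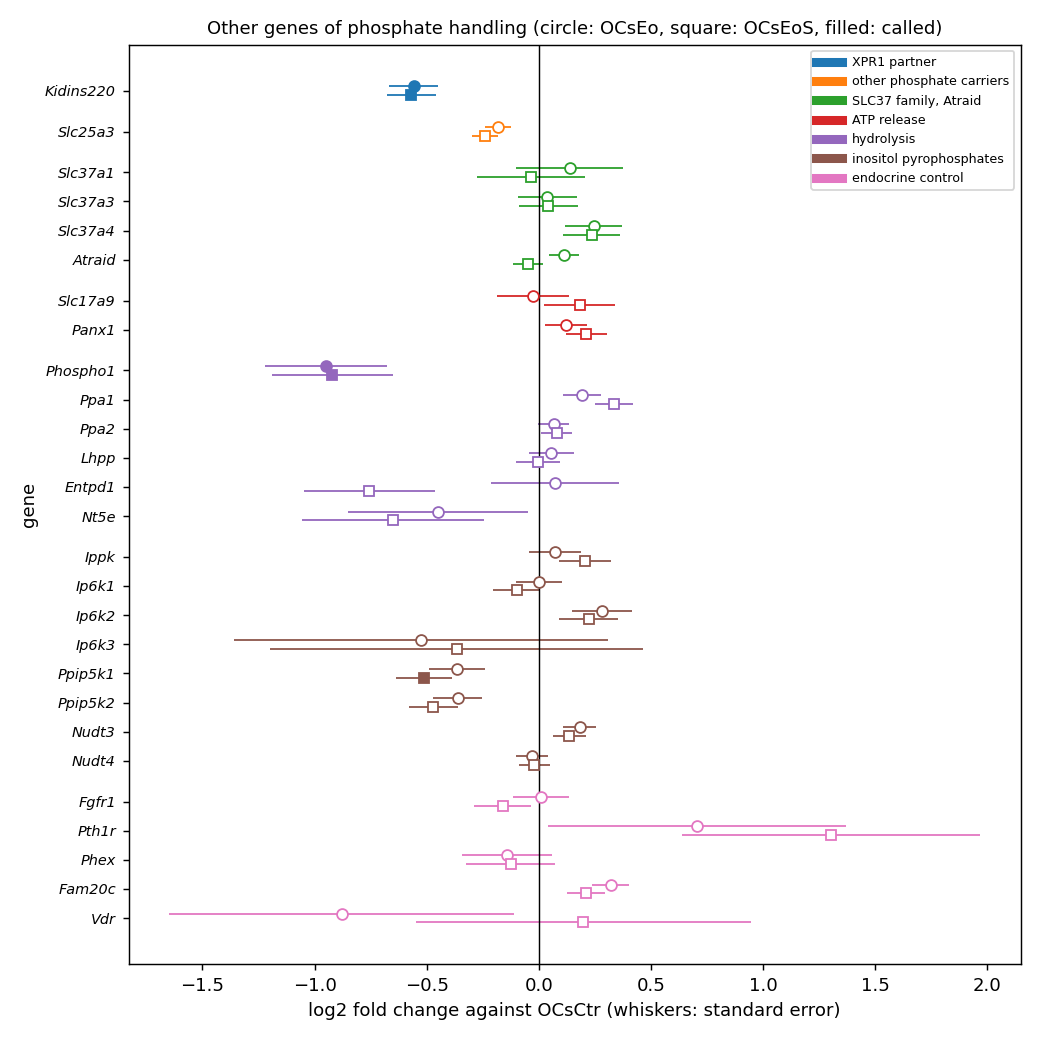
Log2 fold change against OCsCtr of the 27 tested genes of phosphate and pyrophosphate handling in OCsEo (circles) and OCsEoS (squares), with whiskers of 1 standard error and filled symbols for genes called by edgeR. Filled symbols are limited to Kidins220, Phospho1 and, in OCsEoS, Ppip5k1, all to the left of 0.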

How the data were processed

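Bulk RNA-seq. libraries of OCsCtr, OCsEo and OCsEoS (n = 4 each) were grouped by their labels. The submitters' processing notes name fastp, HISAT2 2.0.5 and mm10, and the study's methods name featureCounts. The authors deposited raw counts per gene with a gene length, for 47643 genes, without normalization. The annotation release and strand setting are not given in the sources used here. Of the gene identifiers, 47224 (99.1%) are in GENCODE vM21, from which overlaps and other lengths were taken, and the deposited lengths of Slc20a2 and Slc37a2 differ from its merged exons.

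Counts were analysed in R 4.3.3 with edgeR 4.0.16 (filterByExpr with minimum count 10, 13681 genes; TMM factors 0.968 to 1.03; 1 quasi-likelihood fit of all 12 libraries). A gene was called at a Benjamini-Hochberg adjusted p under 0.05 over all genes and an absolute log2 fold change over 0.5. CPM and RPKM use TMM-scaled library sizes, the latter the deposited lengths, and likeness is Pearson's r of log2 CPM (prior count 2). Alternatives were DESeq2 1.42.0, other scalings, filters and cut-offs, 2-group fits, a replicate block and each library left out. The method was tested on simulated data.

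All 18 pairs of libraries within groups differed beyond sampling noise (chi-square over degrees of freedom 10.3 to 36.9). Counting limits such as 3 counts cover counting error only.

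The 6 genes and all lists were chosen with earlier results of these data known. The genes named were the 6, genes of the pathway list that were called, the most abundant gene of each of its classes, and the 5 (Ank, Xpr1) or 3 genes most like each of the 6. The others singled out from that list (Slc37a1, Slc37a3, Slc37a4, Slc34a1, Slc34a2, Slc34a3, Slc17a1, Alpl, Ppip5k2 and Entpd1) were named after their values were seen.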

Additional observations from a re-analysis of the deposited data

Results flagged for a closer look

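One of 18 groups of 4 libraries, taken over the 6 genes and 3 groups, held a library far from the others. Slc37a2 stood at 1135 CPM in OCsEo replicate 1, below the other OCsEo libraries at 1291 to 1314 CPM, and its gap to the nearest was 0.872 of the group's range, above the critical value of 0.829. Chance alone gives such a gap in about 1 of 20 groups. Without this library the log2 fold change of Slc37a2 in OCsEo against OCsCtr was -0.52 in place of -0.57.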

How the results depend on the processing

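The log2 fold changes of the 6 genes against OCsCtr kept their direction and moved by less than the replicate spread in all 72 values from fits that left out no library. With each library left out in turn, Ank ran from -0.72 to -0.66 in OCsEo and from -0.51 to -0.44 in OCsEoS, where it crossed the cut-off without OCsCtr replicate 4 or OCsEoS replicate 2. Xpr1 ran from -0.74 to -0.65 and from -0.83 to -0.72, and Slc37a2 from -0.60 to -0.52 and from -0.59 to -0.50. By length of the longest transcript (OCsCtr and OCsEoS) and by merged exons (all groups, added after seeing the data, as were the ratios by other lengths), Ank ranked 1 and Slc37a2 ranked 2 of the 6, and by either Slc20a1 ranked 4 and Slc20a2 ranked 5 in the stimulated groups. With no fold change cut-off, 2382, 3151 and 81 genes were called in OCsEo against OCsCtr, OCsEoS against OCsCtr and OCsEoS against OCsEo, in place of 804, 1058 and 52, and 6 and 6 pathway genes in place of 2 and 3. For OCsEoS against OCsEo, DESeq2 on all 12 libraries called 94 genes and edgeR with no filter called 100 genes. Leaving out 1 library gave 657 to 975, 848 to 1348 and 17 to 62 genes, the last being 17 without OCsEoS replicate 3, 27 without OCsEo replicate 2, 31 without OCsEo replicate 3 and 34 without OCsEoS replicate 4. It gave 0 to 2, 2 to 4 and 0 to 1 pathway genes (0 in OCsEo without OCsEo replicate 3, and 1 between the stimulated groups, Entpd1, without OCsEoS replicate 2). The cause was not tested, beyond fewer libraries entering.

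The 12 same-numbered pairs of libraries correlated at -0.0435 to 0.0944 in their deviations from group means. Their median was 0.0422, against -0.0130 for the 36 other pairs between groups. Values this low do not settle whether replicate numbers pair the libraries, and the main fit used no pairing. With a replicate block, 854, 1108 and 67 genes and 2, 4 and 0 pathway genes were called, Enpp1 stood at 0.57 in OCsEo and 0.45 in OCsEoS against OCsCtr in place of 0.37 and 0.28, and Ank differed between OCsEoS and OCsEo by 0.21 (edgeR adjusted p = 0.0163). Enpp1 had the fewest counts of the 6, at 24 to 110 per library.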

Other observations

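Set against the summed level of the 14 osteoclast markers in the same library, none of Ank, Xpr1 and Slc37a2 was separated downwards from OCsCtr in either stimulated group. Most of that sum came from Ctsk, Mmp9 and Acp5, at means of 12122, 8439 and 7158 CPM in OCsCtr. Log2 fold changes of single markers ran from -0.13 (Tnfrsf11a) to -0.99 (Itgb3) in OCsEo. In OCsEoS they ran from -0.26 (Tnfrsf11a) to -1.10 (Mmp9), so that the shares depend on which markers carry the sum. Xpr1 was 1.82 ± 0.134% of that sum in OCsCtr, 1.69 ± 0.157% in OCsEo and 1.85 ± 0.139% in OCsEoS (SD, n = 4), with overlapping groups. Ank was 3.41 ± 0.325%, 3.20 ± 0.332% and 4.27 ± 0.445%, and Slc37a2 was 5.63 ± 0.365%, 5.73 ± 0.258% and 6.70 ± 0.564%, and for both every OCsEoS library lay above the OCsCtr libraries. The uptake carriers had higher means in the stimulated groups, Slc20a1 with 0.0822 ± 0.00759%, 0.133 ± 0.0327% and 0.171 ± 0.0526% and Slc20a2 with 0.0967 ± 0.00513%, 0.127 ± 0.0234% and 0.154 ± 0.0380%. For both carriers every stimulated library lay above the OCsCtr libraries. Enpp1, with few counts, had 0.00598 ± 0.00422%, 0.0115 ± 0.00118% and 0.0127 ± 0.00355%. Its OCsEo libraries lay above OCsCtr, the lowest at 0.00991% against a highest of 0.00965%, and its OCsEoS libraries overlapped OCsCtr. All 6 genes together took 0.359 to 0.383% of all counts in OCsCtr, 0.227 to 0.252% in OCsEo and 0.232 to 0.274% in OCsEoS. None of these shares was tested.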
